A study of Mus musculus with 12 samples.

Results

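Gpr35 and 9 other G protein-coupled receptor genes of myeloid cells were examined in lungs of mice that could or could not make interleukin-10 (IL-10) in B cells. The genes were picked by symbol as a set of related receptors, with earlier results of these data known, and all 10 were found among the 55414 genes of the expression table. They are Gpr35, Gpr84, Hcar2, Ffar2 and Sucnr1, which respond to metabolites, and Fpr1, Fpr2, Ptafr, Ltb4r1 and C5ar1, which respond to chemoattractants. Whole-lung RNA was sequenced from 12 mice of C57BL/6J background, 6 termed IL-10 B-WT and 6 termed IL-10 B-KO. All 12 had been instilled with lipopolysaccharide (LPS), a bacterial cell wall component that causes acute lung injury, and their lungs were taken on day 4, so that no lung without LPS enters the comparison. The IL-10 B-KO mice carried floxed Il10 alleles (IL-10 flox/flox) and mb1-cre, a Cre driven by a gene of the B-cell lineage. The sources used here call the IL-10 B-WT mice the corresponding controls and do not give their Cre or flox alleles, nor the age of any animal. The methods describe perfusion and lavage before the lungs were excised, which can remove part of the blood and air-space cells.

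These receptors pass on signals through heterotrimeric G proteins, mostly of the Gi family, and are carried mainly by neutrophils, monocytes and macrophages. The metabolite receptors sense small molecules from the diet, the microbiota or the cell's own metabolism: medium-chain fatty acids (Gpr84), ketone bodies and niacin (Hcar2), short-chain fatty acids (Ffar2) and succinate (Sucnr1), whereas kynurenic acid, lysophosphatidic acid, Cxcl17 and a serotonin breakdown product have all been proposed as ligands of Gpr35. The chemoattractant receptors guide myeloid cells into injured lung, toward formyl peptides (Fpr1 and Fpr2), platelet-activating factor (Ptafr), leukotriene B4 (Ltb4r1) and complement fragment C5a (C5ar1).

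Promoter sequences are shown for Gpr35, after which the set is named, for Fpr1 and Fpr2, which lie beside each other and of which Fpr2 had the highest mean level, and for C5ar1, which had the smallest p-value. The windows run from 250 bases before to 50 bases after a RefSeq transcript start on GRCm38.p6, 5′ to 3′ on the strand of the gene. Capitals mark matches to 3 short motifs searched on both strands, GAGGAAGT for PU.1, TTNNGNAA for C/EBP and TTCNNNGAA for STAT, all of them factors active in myeloid cells. No 2 of these matches overlapped in these windows.
Gpr35, chr1:92972869-92973168, plus strand: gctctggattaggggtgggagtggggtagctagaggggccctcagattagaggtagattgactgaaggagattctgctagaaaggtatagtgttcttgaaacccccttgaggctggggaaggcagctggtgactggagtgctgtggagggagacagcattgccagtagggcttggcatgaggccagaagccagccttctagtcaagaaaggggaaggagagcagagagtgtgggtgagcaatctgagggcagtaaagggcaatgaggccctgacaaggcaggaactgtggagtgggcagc
Gpr35, chr1:92978653-92978952, plus strand: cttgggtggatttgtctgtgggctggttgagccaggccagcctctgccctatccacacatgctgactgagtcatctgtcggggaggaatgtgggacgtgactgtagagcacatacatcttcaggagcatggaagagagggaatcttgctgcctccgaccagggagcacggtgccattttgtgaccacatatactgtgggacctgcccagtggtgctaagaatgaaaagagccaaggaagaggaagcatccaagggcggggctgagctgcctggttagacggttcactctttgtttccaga
Fpr1, chr17:17883890-17884189, minus strand: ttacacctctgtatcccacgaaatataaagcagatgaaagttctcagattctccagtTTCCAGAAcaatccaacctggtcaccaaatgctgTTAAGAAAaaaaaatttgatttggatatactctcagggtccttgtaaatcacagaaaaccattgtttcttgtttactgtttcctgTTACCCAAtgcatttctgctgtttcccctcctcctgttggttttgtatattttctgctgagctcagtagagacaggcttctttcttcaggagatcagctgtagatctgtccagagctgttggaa
Fpr2, chr17:17887574-17887873, plus strand: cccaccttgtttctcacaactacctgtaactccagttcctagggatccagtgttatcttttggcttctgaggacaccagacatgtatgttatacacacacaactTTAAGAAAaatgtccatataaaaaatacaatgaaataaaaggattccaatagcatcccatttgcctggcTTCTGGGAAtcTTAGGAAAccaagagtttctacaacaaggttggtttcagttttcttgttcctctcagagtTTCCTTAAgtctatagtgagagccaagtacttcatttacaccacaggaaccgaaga
C5ar1, chr7:16259289-16259588, minus strand: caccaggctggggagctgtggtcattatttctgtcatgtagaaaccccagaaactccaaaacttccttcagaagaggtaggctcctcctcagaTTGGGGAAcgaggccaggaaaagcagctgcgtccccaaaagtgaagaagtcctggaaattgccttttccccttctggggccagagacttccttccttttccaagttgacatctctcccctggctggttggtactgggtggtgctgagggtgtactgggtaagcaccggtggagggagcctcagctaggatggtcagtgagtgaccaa

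Of the 10 genes, 9 had at least 1 window and 13 windows were found in all; Hcar2 was not matched. The C/EBP letters were found in 9 of the 13 windows and in 40.7% of the 32851 promoter windows of the genome. By gene these were 6 of 9, since 4 of the windows belong to Ffar2, and a pair of those overlap and share 1 match. The PU.1 letters were found in 1 window, that of Ltb4r1, against 3.20% of all windows, and the STAT letters in 1, that of Fpr2, against 8.30%. Fpr1 held the C/EBP letters 3 times, at 193, 159 and 74 bases before its start. Fpr2 held them 3 times as well, at 146, 66 and 6 bases before its start, with the STAT letters at 77. C5ar1 held them once, at 157 bases before the start, and both Gpr35 windows had no match to any of the 3 motifs. The starts of Fpr1 and Fpr2 are 3885 bases apart and point away from each other. A match is a run of letters and no evidence that a factor binds there.

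The values are TPM, transcript levels divided by gene length and brought to a common library total, so that levels of different genes can be set side by side. The number of genes above 0 lay between 21380 and 24138 per library, and read depth cannot be read from TPM. Il10 itself was between 0 and 0.88 TPM in the IL-10 B-WT and between 0 and 0.58 TPM in the IL-10 B-KO lungs, with no difference detected (two-sided exact permutation p = 0.745, n = 6 per group). The deletion is limited to B cells, while the RNA is that of all lung cells. Cd79a, a chain of the B-cell receptor, was between 15.3 and 258.64 TPM in the IL-10 B-WT lungs and between 0 and 5.73 TPM in the IL-10 B-KO lungs, and fell by 4.16 on the log2 scale (limma, adjusted p = 0.0222). What lowered Cd79a in the IL-10 B-KO lungs was not tested. Libraries of 2 lungs stood apart from their groups in myeloid genes. The 10 neutrophil markers summed to 2641 TPM in IL-10 B-WT replicate 1 against at most 1139 TPM in the other IL-10 B-WT lungs, and the 8 monocyte markers to 1963 against at most 548 TPM. In IL-10 B-KO replicate 2 the monocyte markers summed to 304 TPM against at least 887 TPM in the other IL-10 B-KO lungs, while its neutrophil sum of 1073 TPM was close to the 1316 TPM of replicate 1. The 5 B-cell markers summed to 63.96 TPM in IL-10 B-KO replicate 2 and to 39.44 TPM in IL-10 B-KO replicate 6. The other IL-10 B-KO lungs had at most 6.91 TPM and the IL-10 B-WT lungs at least 59.19 TPM. How these sums bear on the receptors was not tested. Among the 9 receptors tested below, IL-10 B-WT replicate 1 was the highest and IL-10 B-KO replicate 2 the lowest of its group in each. Results are therefore given with and without these lungs. Both lungs were picked from the same values, and leaving either out raises the log2 fold change of each tested receptor by construction. Fits without them are therefore no separate support for a difference. The same choice lies behind counts of IL-10 B-KO lungs above the IL-10 B-WT lungs other than replicate 1. The share of all genes with such counts was not determined.

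Averaged over the 12 lungs, Fpr2 was the most abundant of the receptors at 79.2 ± 93.2 TPM (SD, n = 12) and Sucnr1 the least at 0.188 ± 0.179 TPM. Between them stood Fpr1 (37.8 ± 40.2 TPM), C5ar1 (36.7 ± 37.0), Hcar2 (32.0 ± 43.0), Ptafr (20.3 ± 19.5), Gpr84 (16.3 ± 22.3), Ltb4r1 (10.4 ± 10.2), Gpr35 (10.3 ± 9.02) and Ffar2 (2.95 ± 2.00). Of the 9 neighbouring pairs in this order, 4 differed in log2(TPM + 1) by an exact two-sided sign-flip permutation test over lungs. Fpr2 was above Fpr1 in 12 of 12 lungs (adjusted p = 0.0022), Ptafr above Gpr84 in 10 (adjusted p = 0.0121), Gpr35 above Ffar2 in 12 (adjusted p = 0.0022) and Ffar2 above Sucnr1 in 11 (adjusted p = 0.00293). The other 5 neighbours were not separated by this exact test (adjusted p from 0.134 to 0.576). Pairs that are not neighbours were not tested, and of these C5ar1 was above Ptafr in 11 lungs and Fpr1 above Ptafr in 10. The order of the means also rests on which lungs are averaged, since it pools both genotypes and IL-10 B-WT replicate 1. Gpr84 was below Ffar2 in 6 of 12 lungs, and in the 5 other IL-10 B-WT lungs it averaged 0.812 ± 1.05 TPM against 1.57 ± 1.26 TPM for Ffar2. Fpr2 was the highest of the 10 in 11 lungs and C5ar1 in the remaining one, IL-10 B-WT replicate 5, where it made up 36.5% of their summed TPM.

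All 9 receptors that could be tested had a positive log2 fold change of IL-10 B-KO over IL-10 B-WT lungs, as did 63.2% of all genes, but none passed the test over all genes. Sucnr1 reached 1 TPM in 0 libraries and was left out of the fit, which took genes with at least 1 TPM in at least 6 libraries. The members' log2 fold changes ranged from 0.63 for Ffar2 to 2.08 for Gpr84, on the log2(TPM + 1) scale, which understates changes of low genes. Their median was 1.65 against 0.10 over all 15148 genes tested, and 8 of 9 were at or above 1, as were 3.52% of all genes. By limma with Benjamini-Hochberg adjustment, 0 of 9 passed, which took an adjusted p up to 0.05 and a log2 fold change of 1 or more in size, against 0.495% of all genes in either direction and 0.0264% with a higher level in IL-10 B-KO (adjusted p of the receptors from 0.275 to 0.498). An unadjusted limma p of at most 0.05 was reached by 5 of 9, against 12.5% of all genes in either direction and 6.83% higher, and an exact permutation p of at most 0.05 by 2, Ltb4r1 and C5ar1, against 11.2% of all genes in either direction and 5.39% higher. In none of the 9 did the 6 lungs of one genotype lie wholly above those of the other, which 1.02% of all genes did. Since these are whole lungs, more receptor-bearing cells and more receptor RNA per cell cannot be told apart in any of these values.

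**Figure D1:**
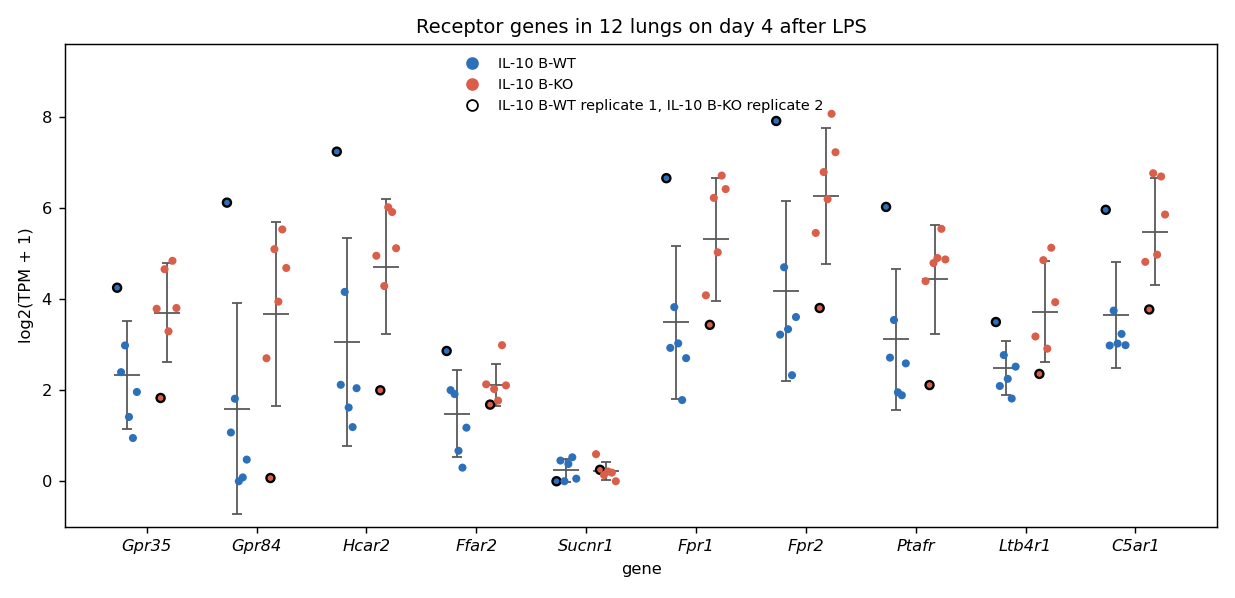
Level of each of the 10 receptor genes as log2(TPM + 1) in the 6 IL-10 B-WT lungs (blue) and 6 IL-10 B-KO lungs (red) on day 4 after LPS. Points are lungs, bars are the mean ± SD of log2(TPM + 1), and black outlines mark IL-10 B-WT replicate 1, the highest lung of its group in all 9 tested receptors, and IL-10 B-KO replicate 2, the lowest of its group in all 9.

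Gpr35 (ENSMUSG00000026271, chr1:92950865-92986391, plus strand, 6 annotated transcripts) was at 18.01, 4.26, 6.90, 1.66, 0.93 and 2.89 TPM in the IL-10 B-WT replicates 1 to 6. In IL-10 B-KO replicates 1 to 6 it was at 12.80, 2.55, 24.20, 8.79, 27.64 and 12.96 TPM. The genotypes overlapped at both ends: IL-10 B-WT replicate 1 exceeded 4 IL-10 B-KO lungs, and IL-10 B-KO replicate 2 lay within the range of the other IL-10 B-WT lungs. The means were 5.78 ± 6.36 and 14.8 ± 9.45 TPM (SD, n = 6 each). The log2 fold change of 1.38 ± 0.58 (SE) did not pass (limma adjusted p = 0.362, exact permutation p = 0.0693). Without IL-10 B-WT replicate 1 the log2 fold change was 1.76 with an adjusted p of 0.0608, and without IL-10 B-KO replicate 2 it was 1.75 with an adjusted p of 0.111.

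Gpr84 (ENSMUSG00000063234, chr15:103308235-103310612, minus strand), the receptor for medium-chain fatty acids, is induced in macrophages and neutrophils by LPS. On the log2 scale it had the widest spread of the set, with 68.40 TPM in IL-10 B-WT replicate 1 and 0.00 to 2.51 TPM in the other 5 IL-10 B-WT lungs, against 5.50, 0.05, 33.19, 14.38, 45.16 and 24.68 TPM in the IL-10 B-KO replicates 1 to 6. The single highest lung was thus an IL-10 B-WT one, while 5 of 6 IL-10 B-KO lungs exceeded every other IL-10 B-WT lung. The group means of 12.1 ± 27.6 and 20.5 ± 17.1 TPM lay within each other's spread, and the medians were 0.745 and 19.5 TPM. The log2 fold change was 2.08 ± 1.09 (limma adjusted p = 0.446), and 2.98 without IL-10 B-WT replicate 1 (adjusted p = 0.0532). An exon of Gpr84 overlaps Gm49482 on the opposite strand, which was between 0 and 8.37 TPM. Whether the libraries kept strand is not stated in the sources used here, and reads of these genes may not be separable.

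Hcar2 (ENSMUSG00000045502, chr5:123863570-123865499, minus strand, 1 exon), the receptor for niacin and β-hydroxybutyrate, gave the same picture. It was at 149.77 TPM in IL-10 B-WT replicate 1, the highest of all 12 lungs, and between 1.28 and 16.84 TPM in the other IL-10 B-WT lungs. IL-10 B-KO lungs had 29.92, 2.99, 18.50, 63.71, 59.13 and 33.67 TPM, so that all but replicate 2 were above those 5. The means were nearly equal at 29.4 ± 59.3 and 34.7 ± 23.4 TPM, and became 5.33 ± 6.49 against 34.7 once IL-10 B-WT replicate 1 was left out. The log2 fold change was 1.65 ± 0.97 (limma adjusted p = 0.478) with all lungs and 2.49 (adjusted p = 0.0548) without it.

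Ffar2 (ENSMUSG00000051314, chr7:30818348-30823775, minus strand), which senses acetate, propionate and other short-chain fatty acids, differed least. Its lowest, median and highest values were 0.23, 2.02 and 6.26 TPM in the IL-10 B-WT and 2.21, 3.18 and 6.93 TPM in the IL-10 B-KO lungs. Only IL-10 B-KO replicate 5, at 6.93 TPM, was above the highest IL-10 B-WT lung. The log2 fold change of 0.63 ± 0.39 did not pass (limma adjusted p = 0.498) and was 0.90 without IL-10 B-WT replicate 1 (adjusted p = 0.12). Sucnr1 (ENSMUSG00000027762, chr3:60081869-60087566, plus strand), the succinate receptor, was between 0 and 0.44 TPM in the IL-10 B-WT and between 0 and 0.51 TPM in the IL-10 B-KO lungs (exact permutation p = 0.981, n = 6 per group). At this level in whole lung no difference between the genotypes was detectable.

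Among the chemoattractant receptors, Fpr1 (ENSMUSG00000045551, chr17:17876471-17883940, minus strand), the high-affinity receptor for bacterial and mitochondrial formyl peptides, was at 99.70, 6.61, 13.15, 7.15, 2.44 and 5.51 TPM in the IL-10 B-WT replicates 1 to 6. In IL-10 B-KO replicates 1 to 6 it was at 15.94, 9.80, 73.61, 31.59, 103.77 and 84.29 TPM. In all, 5 of 6 IL-10 B-KO lungs exceeded all IL-10 B-WT lungs other than replicate 1, which only IL-10 B-KO replicate 5 exceeded. The means of 22.4 ± 38.0 and 53.2 ± 39.2 TPM gave a log2 fold change of 1.83 ± 0.77 that did not pass (limma adjusted p = 0.362, exact permutation p = 0.0628). Without IL-10 B-WT replicate 1 the log2 fold change was 2.46 and passed (adjusted p = 0.0391).

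Fpr2 (ENSMUSG00000052270, chr17:17887824-17893952, plus strand) binds formyl peptides, lipids and serum amyloid A, and lies next to Fpr1 on chromosome 17. It was at 239.40, 8.31, 24.96, 9.11, 4.02 and 11.17 TPM in the IL-10 B-WT and at 42.75, 12.96, 109.49, 72.15, 267.22 and 148.42 TPM in the IL-10 B-KO replicates 1 to 6. The order of lungs was close to that of Fpr1, with the ratio of Fpr2 to Fpr1 between 1.26 and 2.68 in all 12. The log2 fold change was 2.07 ± 0.88 (limma adjusted p = 0.369) and 2.82 without IL-10 B-WT replicate 1 (adjusted p = 0.0365). An exon of Fpr2 overlaps Fpr3 on the same strand and their transcripts are 87.4% identical over 1131 bases, so that the split of reads between them is uncertain. Fpr3 was listed at 0 to 5.46 TPM, low beside Fpr2. Fpr1 and Fpr2 transcripts were 70.0% identical over the 936 bases that aligned.

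C5ar1 (ENSMUSG00000049130, chr7:16246743-16259540, minus strand), the receptor for the complement fragment C5a, had the smallest p-value of the set. It was at 61.20, 6.89, 12.42, 7.13, 8.41 and 6.93 TPM in the IL-10 B-WT and at 27.18, 12.65, 107.52, 30.43, 102.31 and 56.89 TPM in the IL-10 B-KO replicates 1 to 6. Each IL-10 B-KO lung was above each IL-10 B-WT lung other than replicate 1, and 2 were above that one as well. This separation sets aside a lung picked for its high values, and the share of all genes that show it was not determined. The means were 17.2 ± 21.7 and 56.2 ± 40.4 TPM, and the log2 fold change was 1.82 ± 0.59 (limma adjusted p = 0.275, unadjusted p = 0.00848, exact permutation p = 0.0346). It became 2.28 without IL-10 B-WT replicate 1 (adjusted p = 0.0264) and 2.16 without IL-10 B-KO replicate 2 (adjusted p = 0.0851).

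Ltb4r1 (ENSMUSG00000046908, chr14:55765962-55768494, plus strand), the high-affinity receptor for leukotriene B4, had the narrowest spread in IL-10 B-WT lungs relative to its mean. It was at 10.28, 3.26, 5.82, 3.75, 2.52 and 4.72 TPM there, and at 8.05, 4.12, 27.93, 6.52, 33.92 and 14.26 TPM in the IL-10 B-KO replicates 1 to 6. In Ltb4r1, 3 IL-10 B-KO lungs were above every IL-10 B-WT lung. The log2 fold change was 1.24 ± 0.46 (limma adjusted p = 0.328, exact permutation p = 0.0411), and 1.44 without IL-10 B-WT replicate 1 (adjusted p = 0.0803). Ptafr (ENSMUSG00000056529, chr4:132564067-132582683, plus strand), which binds platelet-activating factor, ranged from 2.70 to 63.99 TPM around a median of 5.29 in IL-10 B-WT and from 3.32 to 45.57 TPM around a median of 27.4 in IL-10 B-KO lungs. Its highest lung was IL-10 B-WT replicate 1, and the log2 fold change of 1.32 ± 0.70 did not pass with it (limma adjusted p = 0.449) or without it (1.90, adjusted p = 0.0532).

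With all lungs but IL-10 B-WT replicate 1, 3 of 9 receptors passed, Fpr1, Fpr2 and C5ar1, each higher in IL-10 B-KO, against 3.99% of all genes in either direction and 2.37% higher. That lung was picked for its high values in these same data, so that passing without it is no separate support. The 5 other receptors above a log2 fold change of 1 had adjusted p between 0.0532 and 0.0803 in that fit. Leaving out IL-10 B-KO replicate 2 raised the 9 log2 fold changes to between 0.72 and 2.80, but 0 of 9 passed (0.766% of all genes did). With all lungs and array quality weights, which give less weight to libraries that vary more, C5ar1 was the 1 of 9 that passed, against 2.1% of all genes in either direction and 0.535% higher.

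**Figure D2:**
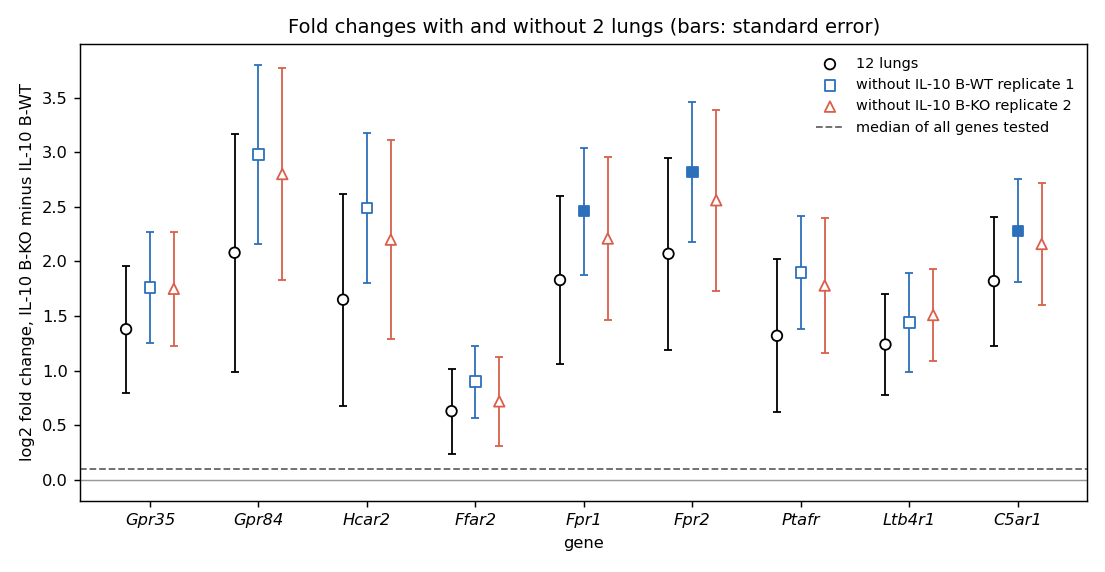
Log2 fold change (IL-10 B-KO minus IL-10 B-WT, log2(TPM + 1) scale) of the 9 tested receptors with all 12 lungs and after leaving out either IL-10 B-WT replicate 1 (blue) or, in red, IL-10 B-KO replicate 2; bars are the SE and filled symbols have an adjusted p of at most 0.05. All values are above 0, and the 3 filled symbols are Fpr1, Fpr2 and C5ar1 without IL-10 B-WT replicate 1. Both lungs were picked from the same values, and leaving either out raises each log2 fold change by construction.

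The receptors moved from lung to lung with markers of neutrophils and monocytes. Over the 12 lungs, log2(TPM + 1) of Fpr1 followed the mean of the 10 neutrophil markers with Pearson's r = 0.98 (Spearman's rho = 0.98, permutation p = 1e-05 for each, the smallest that 100000 permutations can give, adjusted p = 2.42e-05 and 7.25e-05 over 29 relations). Within IL-10 B-WT lungs r was 0.98 and within IL-10 B-KO lungs 0.99, and it was 0.97 without the 2 lungs farthest from the median of the markers. Fpr2 (r = 0.96), C5ar1 (0.96), Ltb4r1 (0.94), Gpr84 (0.92) and Gpr35 (0.91) followed in that order, then Ptafr (0.88), Hcar2 (0.81) and Ffar2 (0.77). For these 8, rho lay between 0.82 and 0.96, and the permutation test gave an adjusted p of at most 0.00359 for r. Their r lay between 0.80 and 0.97 within IL-10 B-WT, between 0.60 and 0.96 within IL-10 B-KO lungs and between 0.70 and 0.95 without the 2 farthest lungs. Within the 5 IL-10 B-WT lungs other than replicate 1, too few for a test, r was 0.96 for Fpr1 and between 0.52 (Ffar2) and 0.90 (Fpr2) for the 8, with 0.59 for C5ar1 and 0.62 for Gpr84, so that part of the relation within IL-10 B-WT rested on replicate 1. Sucnr1 gave r = -0.50, which did not pass (rho = -0.48, permutation p = 0.0995 for r).

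Gpr35 had its highest r with the 8 monocyte markers, at 0.99 (rho = 0.98, permutation p = 1e-05 for each, adjusted p = 2.42e-05 and 7.25e-05), with 0.98 within IL-10 B-WT, 0.99 within IL-10 B-KO lungs and 0.98 without the 2 farthest lungs. For the other receptors r with the monocyte markers was 0.97 for Fpr1 and Fpr2, 0.96 for Gpr84 and C5ar1, 0.95 for Ptafr, 0.92 for Ltb4r1, 0.89 for Hcar2 and 0.87 for Ffar2. Their rho lay between 0.84 and 0.95, with a permutation p for r of at most 0.000517 after adjustment, and r was between 0.77 and 0.97 without the 2 farthest lungs. Within IL-10 B-KO lungs it was lowest for Hcar2, with r = 0.60 for neutrophil and 0.69 for monocyte markers. In the 5 IL-10 B-WT lungs other than replicate 1, r with the monocyte markers was 0.96 for Gpr35 and 0.54 for C5ar1, with the others between 0.79 and 0.96. Both lists move together, so that these values do not assign a receptor to one cell type, and all points share the total of their library.

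The marker sums overlapped between the genotypes, as the receptors did. The neutrophil markers, among them S100a8 and Ly6g, summed to 291 to 2641 TPM in the IL-10 B-WT and 1073 to 7926 TPM in the IL-10 B-KO lungs, and 10 of 10 had a positive log2 fold change (median 1.90, 10 with an unadjusted limma p of at most 0.05, 0 passing). The monocyte markers, among them Ly6c2 and Ccr2, summed to 114 to 1963 TPM and 304 to 2568 TPM, with 8 of 8 positive (median 1.52, 7 with an unadjusted p of at most 0.05, 0 passing). Of all genes, 63.2% were positive and 6.83% were higher with such a p. Without IL-10 B-WT replicate 1, 8 of the neutrophil and 4 of the monocyte markers passed, each higher in IL-10 B-KO, against 2.37% of all genes. The part of these markers in the receptor values was not tested.

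**Figure D3:**
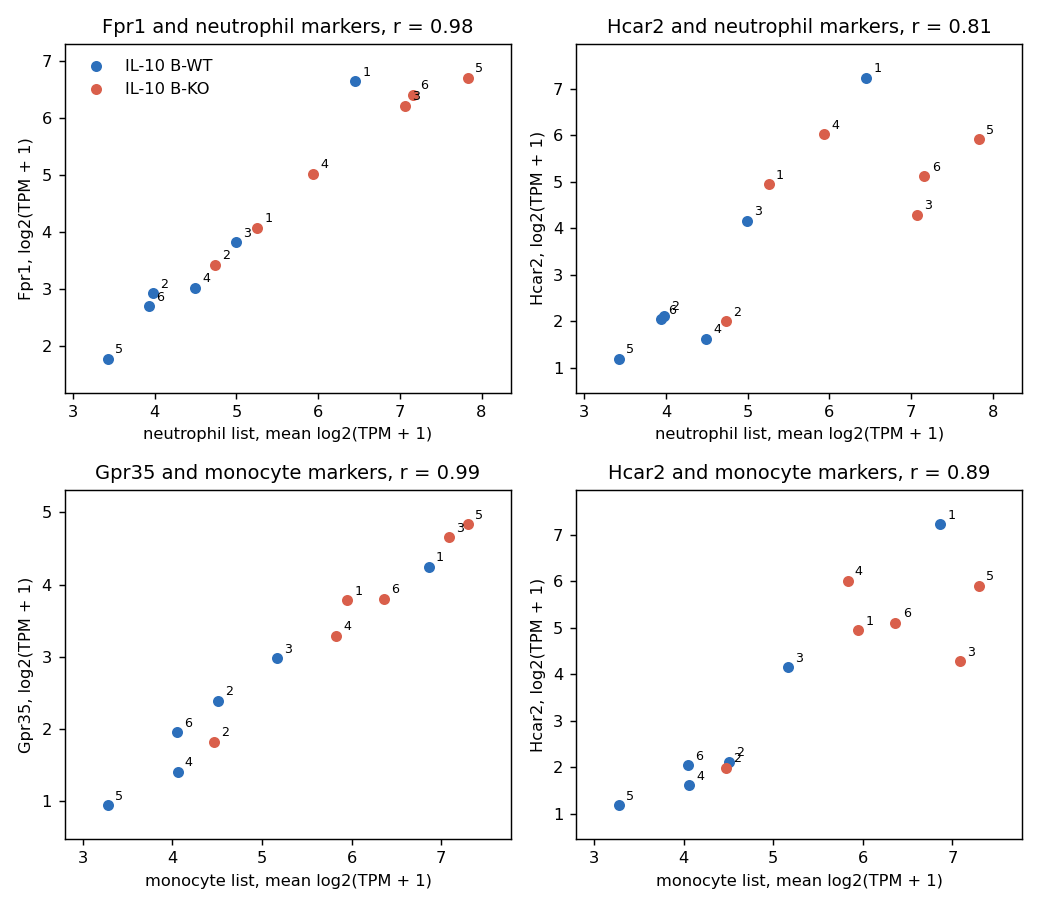
Log2(TPM + 1) of Fpr1 and Hcar2 against the mean log2(TPM + 1) of the neutrophil markers and of Gpr35 and Hcar2 against that of the monocyte markers, receptors on the vertical axes, in the 12 lungs, blue for IL-10 B-WT and red for IL-10 B-KO, with the replicate number beside each point. Lungs of both genotypes lie along one rising line for Gpr35 and Fpr1, with IL-10 B-WT replicate 1 among the IL-10 B-KO lungs, and scatter most for Hcar2.

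Gpr35 ran with the other receptors as well, with r between 0.87 (Hcar2) and 0.94 (Gpr84, Ptafr and Fpr2) over the 12 lungs (rho between 0.85 and 0.95, adjusted permutation p of at most 0.00064 for r), and r = -0.41 for Sucnr1 (permutation p = 0.184). Among all other genes tested, the 5 most like Gpr35 across lungs were Ms4a6c (r = 0.991), Cmpk1 (0.990), Slfn2 (0.989), P2ry6 (0.988) and Lrrc25 (0.987), chosen by Pearson's r of log2(TPM + 1) over 12 lungs. Ms4a6c, a gene of monocytes and macrophages that is one of the 8 monocyte markers used above, had a mean of 30.7 ± 35.03 TPM in the IL-10 B-WT and 92.9 ± 56.3 TPM in the IL-10 B-KO lungs. P2ry6, a receptor for UDP, had 22.04 ± 20.8 and 47.4 ± 25.1 TPM. Lrrc25 and Slfn2, both expressed in leukocytes, had log2 fold changes of 1.59 and 1.31, and Cmpk1, a nucleotide kinase of most cells, had 0.44. None of the 5 passed (limma adjusted p from 0.309 to 0.434). Of the receptors, Ptafr ranked highest by this likeness to Gpr35, at 476 of 15147, and Hcar2 was at 1829, so that many other genes ran closer to Gpr35 than any of them.

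Genes around these receptors were examined in 5 lists, and 0 genes of any list passed with all 12 lungs (75 of all 15148 genes did). Of all genes, 63.2% had a positive log2 fold change and 6.83% were higher with an unadjusted limma p of at most 0.05. Without IL-10 B-WT replicate 1, 2.37% of all genes passed with a higher level. Of 30 related receptors for metabolites, nucleotides, lipids and complement, 22 were tested and 20 had a positive log2 fold change, 7 with an unadjusted limma p of at most 0.05, with a median of 0.67. C3ar1, the receptor for complement C3a, was the farthest at 2.33, with 36.33, 1.67, 10.47, 1.06, 1.22 and 4.76 TPM in the IL-10 B-WT and 27.61, 3.20, 72.74, 24.21, 49.02 and 42.58 TPM in the IL-10 B-KO replicates 1 to 6 (adjusted p = 0.292). Here too IL-10 B-WT replicate 1 lay among the IL-10 B-KO lungs and IL-10 B-KO replicate 2 among the IL-10 B-WT lungs. P2ry6 (1.22), the nucleotide receptor P2ry13 (1.18) and the proton-sensing Gpr65 (1.15) came next. Oxgr1, Fpr-rs3 and Fpr-rs4 were listed at 0 in all lungs. Without IL-10 B-WT replicate 1, C3ar1 passed, as did Adora2b and Fpr3, which are named after their values were seen. Fpr3 met the filter only through that lung and the IL-10 B-KO lungs other than replicate 2. The remaining IL-10 B-WT lungs were at most 0.93 TPM in Fpr3, so that its passing is no support for a difference.

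On the ligand side, the enzymes and proteins that make chemoattractants mostly had positive log2 fold changes. Of 18 genes 17 were tested, 16 were positive and 7 had an unadjusted limma p of at most 0.05, with a median log2 fold change of 0.68. Saa3, a serum amyloid A protein made in inflamed lung, had the largest log2 fold change of the list at 4.74 (adjusted p = 0.328), from 4.48 to 6884 TPM in the IL-10 B-WT and from 34.79 to 8685 TPM in the IL-10 B-KO lungs. The 6884 TPM were those of IL-10 B-WT replicate 1, the other 5 being at most 439.79, and the 34.79 TPM those of IL-10 B-KO replicate 2. Alox5ap, which presents arachidonic acid to 5-lipoxygenase in leukotriene synthesis, had 99.3 ± 76.7 and 283 ± 122 TPM, a log2 fold change of 1.65 (adjusted p = 0.195). Lpcat2, which makes platelet-activating factor, had 1.40 (limma adjusted p = 0.379), and Pla2g7, which breaks it down, had 2.24 (adjusted p = 0.321). Others of the list, named after their values were seen, moved less: Lpcat1 (0.42), Pafah1b1 (0.11), Pafah1b2 (0.38) and Pafah1b3 (0.29). The making and the removal of the Ptafr ligand were not measured. When IL-10 B-WT replicate 1 was left out, 5 genes of this list passed: Saa3, Alox5ap, Lpcat2, Pla2g7 and Anxa1. The last is an Fpr2 ligand that is named after its values were seen.

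Genes for the metabolite ligands had medians closer to that of all genes. Of 16 genes of kynurenine and serotonin breakdown, which bear on proposed Gpr35 ligands, 12 were tested, 3 were positive, 9 negative and 0 had an unadjusted limma p of at most 0.05 (median -0.19). Ido1, which starts the kynurenine pathway, had a log2 fold change of 1.10, with 95.60 TPM in IL-10 B-WT replicate 1 and 87.78 TPM in IL-10 B-KO replicate 5 as the 2 highest lungs. Aldh2 (-0.46), Haao (-0.43) and Maob (-0.28) followed. Of 16 genes of fatty acid, ketone and succinate metabolism 9 were positive, 2 of them with an unadjusted p up to 0.05 (median 0.19). Of all genes, 63.2% were positive and 6.83% were higher with such a p. Acod1, which makes itaconate in activated macrophages, had a log2 fold change of 2.67, although its mean was 93.1 TPM in the IL-10 B-WT and 85.6 TPM in the IL-10 B-KO lungs, since 543.88 TPM in IL-10 B-WT replicate 1 carried the former mean. It was the 1 gene of the list to pass without that lung. The ketone body enzyme Bdh2 (0.67) and the succinate dehydrogenase subunit Sdhd (0.51) differed less.

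Of 30 genes of G protein signaling downstream of such receptors, 27 were positive, 3 with an unadjusted limma p of at most 0.05, with a median log2 fold change of 0.45. Of all genes, 63.2% were positive and 6.83% were higher with such a p. The kinase Fgr (1.35), the phosphoinositide 3-kinase subunit Pik3r5 (1.28) and the exchange factor Vav1 (1.14), all of leukocytes, were the farthest. Without IL-10 B-WT replicate 1, 0 of the 30 passed.

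**Figure D4:**
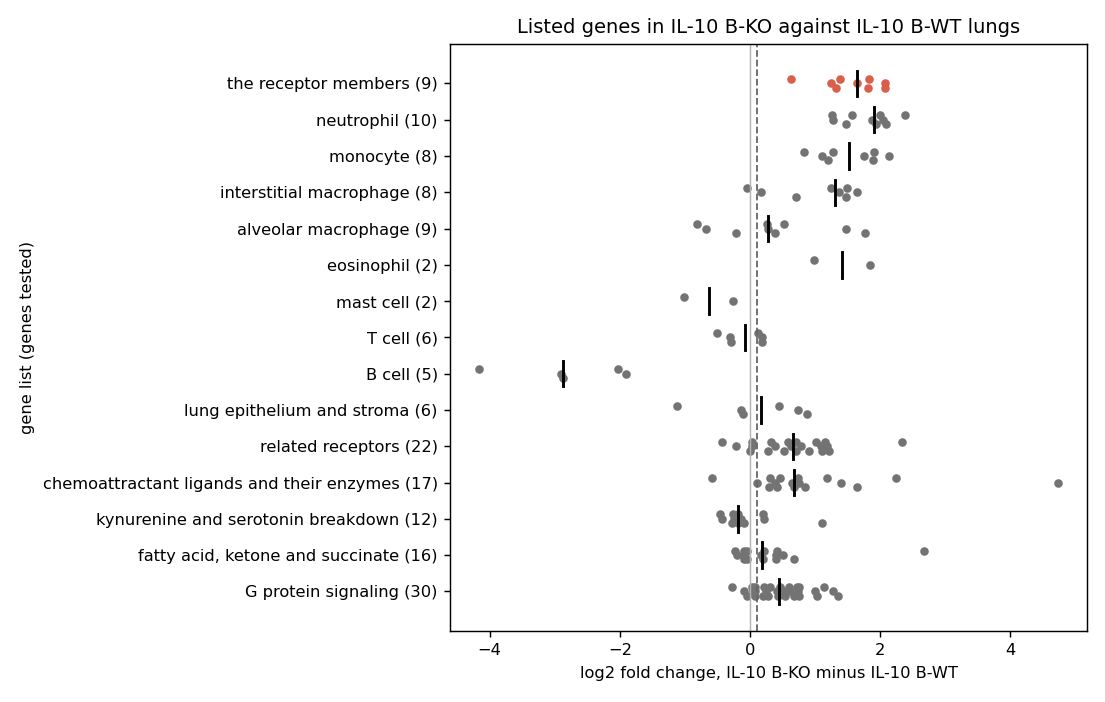
Log2 fold change (IL-10 B-KO minus IL-10 B-WT) of each tested gene of the receptors and of the lists around them, 1 point per gene, with vertical bars at the list medians and a dashed line at 0.10, the median of all 15148 genes. The receptors (median 1.65) sit near the neutrophil (1.90), monocyte (1.52) and interstitial macrophage (1.3) markers. They also sit near the 2 tested eosinophil markers, Ear6 and Ear1 (1.41), which do not stand for the untested ones. Of these, Prg2 and Il5ra had lower means in IL-10 B-KO lungs, while Epx and Ccr3 did not. The genes of kynurenine and serotonin breakdown lie around -0.19.

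Among the marker lists of other lung cells, the median log2 fold changes lay between -2.87 and 1.41. Of 9 alveolar macrophage markers 6 were positive (median 0.28, 1 with an unadjusted limma p of at most 0.05), and of 8 interstitial macrophage markers 7 were (median 1.3, 4 with such a p). Of all genes, 63.2% were positive and 6.83% were higher with such a p. The 6 markers of lung epithelium and stroma had a median of 0.17 and summed to between 20809 and 110935 TPM in all lungs, and the 6 T-cell markers had a median of -0.08. Of 6 eosinophil markers 2 were tested (median 1.41) and of 5 mast cell markers 2 (median -0.63), and their sums stayed at or below 82.2 and 13.7 TPM. The tested eosinophil marker Ear6 reached 1 TPM only in IL-10 B-WT replicate 1 and in IL-10 B-KO lungs other than replicate 2. Untested Prg2 (mean 0.215 TPM in IL-10 B-KO against 1.805 in IL-10 B-WT) and Il5ra (0.0617 against 0.39) went the other way. Epx (0.015 against 0.00833) and Ccr3 (0.0917 against 0.07) did not. The 5 B-cell markers had negative values (median -2.87), of which Cd79a passed. Differences between these lists and the receptors were not tested.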

How the data were processed

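Lungs of IL-10 B-WT mice (6) and of mice termed IL-10 B-KO (6), all given LPS were analyzed from 1 table of 12 libraries. The authors deposited the values as TPM, 1 column per library without pooling. The submitters' processing notes name fastp, HISAT, RSEM and GRCm38.p5, with no versions and no strand setting. TPM keep no depth: the number of reads is unknown, no count model or counting error could be given, and precision rests on the spread between lungs. Since a library shares 1 total, genes that take a large share lower the others. Groups and replicates came from the labels, which do not say more about separate animals than the sample names, and p-values measure the spread between these samples. The number of unused sample columns was 0.

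Differences were tested with limma 3.58.1 in R 4.3.3 (lmFit, then eBayes with trend) on log2(TPM + 1) values, with only genotype in the model. The 15148 genes tested reached 1 TPM in 6 or more libraries, with Benjamini-Hochberg adjustment over all of them. Genes passed with an adjusted p up to 0.05 and a log2 fold change of 1 or more in size. Limma is one of the tools that the study lists for this step. Two-sided exact permutation tests were added for single receptors, with a smallest possible p of 0.00216. On simulated data of this comparison with 15148 genes, 87 of 100 genes changed by 2 and 95 of 100 changed by 3 (log2) were recovered, and 5 unchanged genes were called. The noise was drawn separately for each gene, and the changed genes came from all genes above a low mean level. The receptors instead shared lungs that stood apart, and Fpr2 (2.07 ± 0.88, SE) and Gpr84 (2.08 ± 1.09) did not pass. The share recovered can therefore not be read as that for the receptors. The receptors and the gene lists were chosen with earlier results of these data known. Genes named were the 10 receptors, from each list those past the threshold or up to 4 with the largest fold change, the 5 most like Gpr35, Il10 and Cd79a, with exceptions said in place; some of the genes that this rule names are not reported here. Lists covered neutrophil, monocyte, macrophage, eosinophil, mast cell, T-cell, B-cell and epithelial or stromal markers, related receptors, chemoattractant ligands, kynurenine and serotonin breakdown, fatty acid, ketone and succinate metabolism, and G protein signaling.

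Coordinates came from GENCODE M21 on GRCm38 (52081 genes matched by ID) and promoter sequences from RefSeq on GRCm38.p6. Alternatives changed the pseudocount, filter, scaling, weights, threshold, replicate block and libraries. Other steps ran in Python 3.11.15 with SciPy 1.17.1, pandas 2.3.3, matplotlib 3.10.9 and NumPy 2.4.6.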

Additional observations from a re-analysis of the deposited data

Results flagged for a closer look

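By Dixon's test at the 95% level, applied to each of the 10 receptors in each genotype on log2(TPM + 1) (20 tests of 6 lungs), 4 values from 3 lungs stood far from the others of their group. Chance alone flags about 1 in 20 groups. Gpr84 was at 68.4 TPM in IL-10 B-WT replicate 1, with the gap to the nearest lung taking up 0.70 of the range of the group. C5ar1 was at 61.2 TPM in the same lung, with a gap of 0.74 of the range. Ptafr was at 3.32 TPM in IL-10 B-KO replicate 2, below the other 5 lungs by 0.67 of the range. Ffar2 was at 6.93 TPM in IL-10 B-KO replicate 5, above the others by 0.66 of the range. IL-10 B-WT replicate 1 had the highest monocyte marker sum of its group, at 1963 TPM, and IL-10 B-KO replicate 2 the lowest of its group, at 304 TPM. IL-10 B-KO replicate 5 had the highest neutrophil marker sum of all, at 7926 TPM. What set these lungs apart was not tested.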

How the results depend on the processing

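Every one of the 179 values of the 9 tested receptors under an alternative stayed positive, and 175 stayed on the same side of the threshold. Sucnr1, which entered only the fit with no filter, had a log2 fold change of -0.0049 there (limma adjusted p = 0.997). The number of receptors that passed was 0 in the main fit and 1 with array quality weights, where 2.1% of all genes passed. The 1 was C5ar1 (log2 fold change 1.98, limma adjusted p = 0.0344). At an unadjusted limma p up to 0.05 whatever the fold change, 5 of 9 passed, against 12.5% of all genes. Between 0 and 3 passed when 1 lung was left out. The 3 were Fpr1, Fpr2 and C5ar1 without IL-10 B-WT replicate 1, where 3.99% of all genes passed. Of the 97 tested genes of the 5 lists around the receptors, 0 passed with all lungs. Between 0 and 9 of them passed when 1 lung was left out, the 9 again without IL-10 B-WT replicate 1. Under the other scalings, the other pseudocount, no filter and an adjusted p whatever the fold change, 0 receptors passed. Gpr35 had a log2 fold change between 1.10 and 1.76 when 1 lung was left out (adjusted p from 0.0608 to 0.664) and between 1.27 and 1.63 under the other settings (adjusted p from 0.101 to 0.592). The median of all genes was 0.01 after quantile normalization and -0.01 after centring, against 0.10. Requiring a mean of at least 5 TPM left out Ffar2. With the replicate number as a block, 0 receptors and 0 list genes passed. Same-numbered lungs did not deviate together (correlations between -0.29 and 0.05), so that the numbers give no pairing. Read depth is unknown, and a low level such as that of Sucnr1 has no stated limit of detection.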
